A study of Homo sapiens with 3 samples.

Results

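CBX2 and the Polycomb complex genes were followed in A549 cells, a human lung adenocarcinoma line, after transfection of either strand of the miR-139 precursor. The set was named by symbol and holds 9 genes: CBX2, CBX6, CBX7, CBX8, BMI1 and RING1 of Polycomb repressive complex 1 (PRC1), and EZH2, SUZ12 and EED of Polycomb repressive complex 2 (PRC2). A probe belonged to a member when the RefSeq transcript it was designed on maps to that symbol. This gave 10 probes for 7 genes, out of 58201 probes on the array, of which 31104 matched 22439 RefSeq symbols. CBX6 and EED had no probe by that match and were not analysed here.

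The expression arrays compared 3 conditions with 1 array each, all on A549 cells exposed to the reagent Lipofectamine RNAiMAX. The mock cells received the reagent alone, and the other cells received a miR-139-5p or a miR-139-3p precursor at the same concentration. The comparisons ask which transcripts change when either strand is supplied. No array carried a control precursor of unrelated sequence, the time between transfection and RNA extraction is stated for other assays of the study but not for the arrays in the sources used here, and 1 established line stood for the tumour. One slide held the arrays of mock and of miR-139-5p, and another slide that of miR-139-3p, so slide and transfection cannot be told apart.

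Polycomb proteins keep developmental genes silent. PRC2 methylates histone H3 at lysine residues through EZH2, which needs SUZ12 and EED to be active. The chromobox (CBX) subunit of canonical PRC1 binds the methylated histone tail, and the RING-type subunits attach ubiquitin to histone H2A. A canonical PRC1 complex carries a single CBX protein, so the proportions of the CBX proteins bear on which canonical complexes form. EZH2 is often abundant in dividing tumour cells.

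The transfected strands are shown because the seed, bases 2 to 8 in capitals, is the part of a miRNA that pairs with its targets. Both come from the MIR139 hairpin, which lies in an intron of PDE2A on the minus strand at chr11:72615063-72615130 (GRCh38.p14, RefSeq).
miR-139-3p: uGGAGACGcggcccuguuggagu
miR-139-5p: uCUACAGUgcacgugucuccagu
The seeds differ from each other, and neither was shared with any other of the 2370 mature human miRNAs in the RefSeq table. Whether the member transcripts hold sites for these seeds was not analysed here.

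Each value is the deposited spot intensity or its log2 after division by the 75th percentile of its array. These percentiles were 93.6 in mock, 88.9 after miR-139-5p and 81.0 after miR-139-3p, and 49.9%, 48.1% and 53.1% of spots were well above background. Without replicate arrays no test was possible and a difference carries no biological error. A difference of over 0.5 on the log2 scale was used as a descriptive limit. For scale, the median SD between probes of the same gene was 0.28 where miR-139-3p was set against mock (3684 genes) and 0.15 where miR-139-5p was (3743 genes). Probes of a gene share the RNA but can lie on different transcripts, so this spread holds no variation between cultures and is not purely technical. All 8 epithelial and A549 marker genes were well above background on every array. Of the markers of other cell types, 1 of 3 fibroblast genes was well above background on each array, as were 2, 1 and 2 of 3 endothelial genes and 1, 1 and 2 of 3 leukocyte genes, in the same order of arrays. Among them COL1A1 read 40.1, 101 and 22.7, CDH5 read 14.5, 11.4 and 25.1, and PTPRC read 10.3, 10.2 and 20.1. In bulk RNA, fewer cells of a kind and less RNA per cell cannot be told apart.

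With miR-139-3p, CBX2, CBX8 and EZH2 were lower than mock by over 0.5, CBX7 was higher by over 0.5, and BMI1, RING1 and SUZ12 lay within 0.5. This is 3 lower and 1 higher of 7 genes, where 31.4% of 12672 protein-coding genes were lower and 20.6% higher by the same limit. With miR-139-5p none of the 7 passed the limit in either direction, where 11.4% of 12673 protein-coding genes were lower and 10.3% higher. The counts over members are too small to be read against those shares. The member differences spanned 3.09 log2 units after miR-139-3p, with CBX2 alone at the low end, and 0.59 after miR-139-5p. Over all protein-coding genes the SD of the difference was also larger after miR-139-3p, at 0.85 against 0.45. Their medians were -0.30 and 0.04 (the second was -0.03 without scaling), beside medians of -0.15 and 0.00 over all protein-coding genes. Both comparisons use the same mock array.

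**Figure D1:**
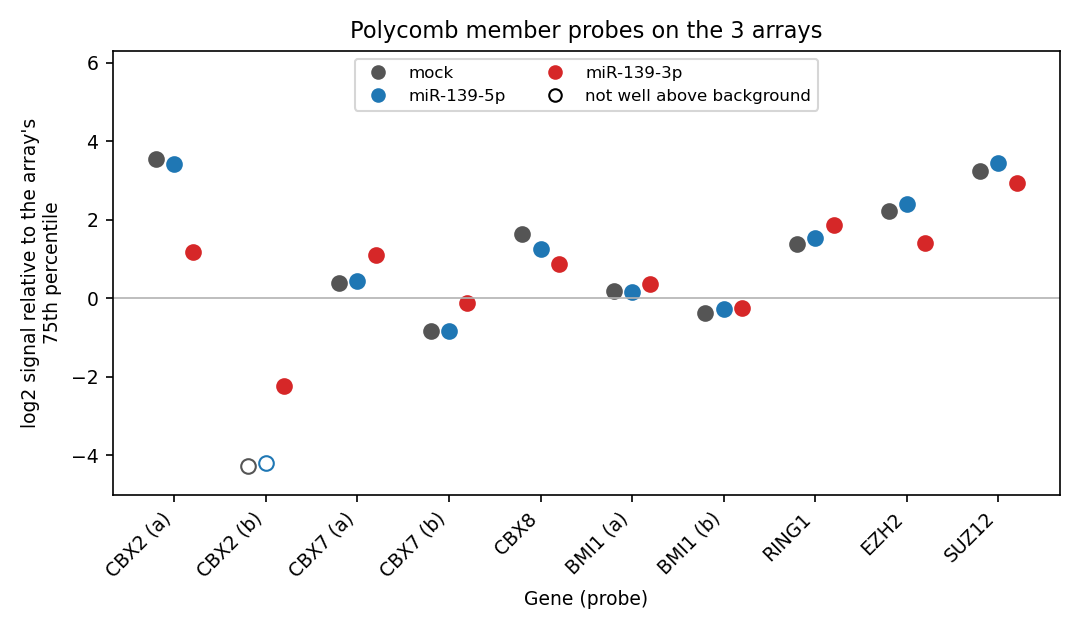
The log2 signal of each member probe relative to the 75th percentile of its array, in mock (grey) and after miR-139-5p (blue) or miR-139-3p (red), with 1 point per array, (a) and (b) for 2 probes of the same gene, and open circles where a probe was not well above background. Points can be compared within a probe only: the red point of CBX2 (a) differs from mock by -2.37, those of CBX7 by 0.72, and blue points stay near the grey ones.

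CBX2 is the chromobox protein that also compacts chromatin through a charged region of its own. Its first probe (A_33_P3423949, on the long transcript) read 1084 in mock, 954 after miR-139-5p and 182 after miR-139-3p. The miR-139-3p array thus stood apart, and mock and miR-139-5p were close. After scaling, the miR-139-3p value was 19.4% of mock, a log2 difference of -2.37, and the miR-139-5p value was 92.6% of mock, a difference of -0.11. Against miR-139-5p, which shared its slide with mock, the log2 difference of miR-139-3p was -2.26. CBX2 ranked 90 from the lowest of 12672 protein-coding genes with miR-139-3p. Among 1442 protein-coding probes whose mock signal lay within 0.5 log2 units of this probe, the median difference was -0.42, and the middle 50% ran from -0.89 to 0.00. The study had picked CBX2 as a candidate target partly for a low value on this same array, so the value is no independent evidence of direction.

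The other CBX2 probe (A_33_P3423954) was designed on the short transcript, which encodes a truncated protein. It read 4.87 in mock, 4.85 after miR-139-5p and 17.3 after miR-139-3p. On mock and miR-139-5p it was not well above background, and on miR-139-3p it was. The difference is therefore a bound: at least 4.10-fold higher than mock and at least 3.71-fold higher than miR-139-5p, where the dim array is represented by its faintest signal well above background or by this probe, whichever read more. Of 1519 probes with a mock signal within 0.25 log2 units of this probe and not well above background on mock, 58.1% passed that limit after miR-139-3p, against 18.6% after miR-139-5p. Passing it there is therefore common for probes this dim, and no direction for the short transcript is drawn from this probe. Only the bright probe entered the gene value. With both probes averaged the difference with miR-139-3p was -0.17.

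CBX8, a chromobox subunit that shares many sites with CBX2, read 291 in mock, 214 after miR-139-5p and 148 after miR-139-3p. The order was mock, miR-139-5p, miR-139-3p from high to low, on 1 probe. The miR-139-3p value was 58.9% of mock, a log2 difference of -0.76, and the miR-139-5p value was 77.3% of mock, a difference of -0.37. Of the members, CBX8 had the lowest difference with miR-139-5p. Among 2173 protein-coding probes of like mock signal the middle 50% with miR-139-3p ran from -0.77 to 0.20, so CBX8 lay just inside it. Its difference was -0.42, within the limit, when median spot intensities with normexp background correction, an offset of 50 and quantile normalisation replaced the processed signals.

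CBX7 is the chromobox subunit best known from self-renewing cells and from repression of the CDKN2A locus. It had 2 probes, and on both the miR-139-3p array was the highest. The first read 122 in mock, 120 after miR-139-5p and 174 after miR-139-3p. The second read 52.4, 49.5 and 74.6 in the same order. Both gave a log2 difference of 0.72 with miR-139-3p, which is 164% of mock, and differences of 0.05 and -0.01 with miR-139-5p. The upper ends of the middle 50% among protein-coding probes of like signal were 0.31 and 0.49, so both probes lay above them.

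CBX2 and CBX8 are neighbours on chromosome 17 with no other protein-coding gene between them, and CBX7 lies on chromosome 22. The adjoining pair thus had lower values with miR-139-3p, at -2.37 and -0.76, and CBX7 had a higher value. ENPP7, the protein-coding gene on the other side of CBX2, was not well above background on any array.

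BMI1 and RING1 form the enzymatic core of canonical PRC1, where BMI1 stabilises the ligase and RING1 is one of its catalytic subunits. BMI1 had 2 probes. The first read 107 in mock, 99.5 after miR-139-5p and 105 after miR-139-3p, and the second read 71.6, 73.6 and 68.3. The raw signals hardly differed, and the scaled log2 differences were 0.18 and 0.14 with miR-139-3p and -0.03 and 0.11 with miR-139-5p. These are under the spread between probes of a gene. RING1 read 245 in mock, 259 after miR-139-5p and 294 after miR-139-3p, highest with miR-139-3p. Its log2 differences were 0.47 and 0.15, so with miR-139-3p it lay just under the limit of 0.5, and under quantile normalisation it was past it at 0.63. The nearest member on the other side of that limit was CBX7 at 0.72.

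EZH2, the histone methyltransferase of PRC2 and a known target of E2F factors, read 432 in mock, 471 after miR-139-5p and 215 after miR-139-3p. Mock and miR-139-5p were close, and miR-139-3p was the lowest. The miR-139-3p value was 57.5% of mock, a log2 difference of -0.80, while the miR-139-5p difference was 0.20. Between miR-139-3p and miR-139-5p the difference was -0.998. Among 1999 protein-coding probes of like signal the median with miR-139-3p was -0.36 and the middle 50% began at -0.80, next to the value of EZH2.

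SUZ12, the scaffold subunit of PRC2, was the only member printed as 10 spots on each array. The spots ran from 840 to 930 with a median of 885 on mock, from 923 to 1025 with a median of 975 on miR-139-5p, and from 593 to 659 with a median of 618 on miR-139-3p. After scaling, the 3 sets of spots did not overlap, with miR-139-5p highest and miR-139-3p lowest. The SD between spots was 0.04 in mock, 0.04 after miR-139-5p and 0.05 after miR-139-3p on the log2 scale. The mean differences were -0.30 for miR-139-3p against mock, 0.22 for miR-139-5p against mock and -0.52 for miR-139-3p against miR-139-5p. They exceeded the error of reading an array, which is not the error between cultures. The 1619 protein-coding probes of like signal had a median difference of -0.38 with miR-139-3p, so SUZ12 was no lower than most of them. Without scaling its difference was -0.50, just past the limit, and under quantile normalisation it was -0.09.

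**Figure D2:**
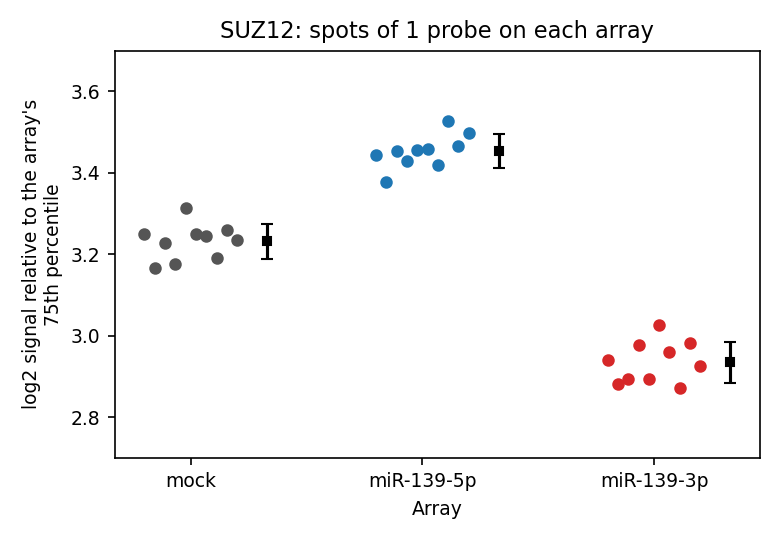
The log2 signal of the 10 SUZ12 spots on each array relative to the 75th percentile of that array, with black squares for the mean and bars for the SD between spots. The spots of the 3 arrays do not overlap, and the means differ from that of mock by 0.22 for miR-139-5p but by -0.30 for miR-139-3p; the bars show reading error within an array only.

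**Figure D3:**
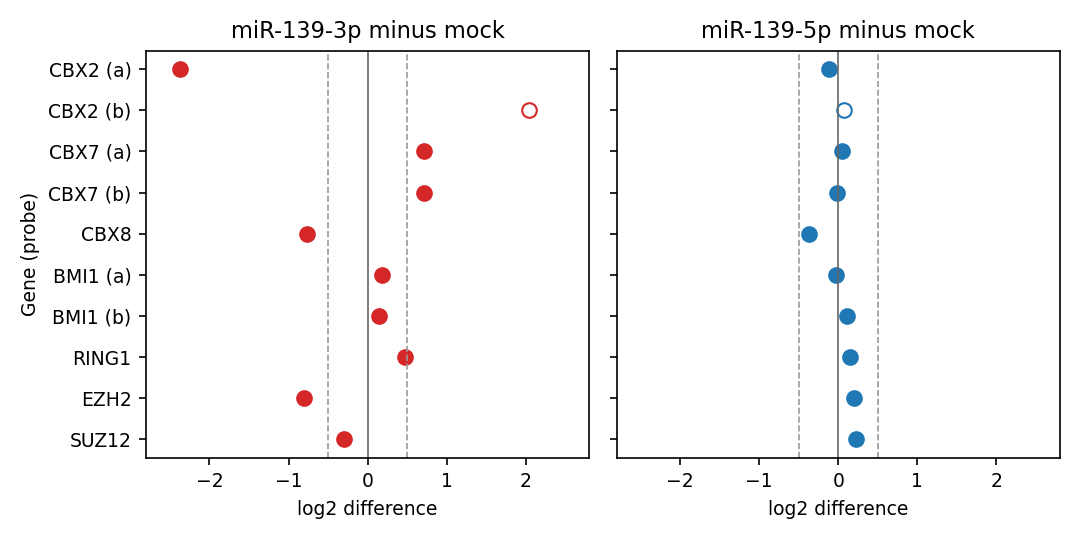
The log2 difference of each member probe from mock for miR-139-3p (left) and miR-139-5p (right), with dashed lines at 0.5 to either side of 0 and open circles for the CBX2 probe whose mock signal was not well above background. On the left the filled points run from -2.37 for CBX2 to 0.72 for CBX7, and on the right every point lies between the dashed lines.

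The 7 member genes differed in where they stood among all protein-coding genes with miR-139-3p. CBX2 was at percentile 0.70, EZH2 at 18.8, CBX8 at 20.1, SUZ12 at 42.0, BMI1 at 66.2, RING1 at 78.6 and CBX7 at 85.7. EZH2 and CBX8 differed by less than the spread between probes. With miR-139-5p the 7 genes lay between percentile 18.0 for CBX8 and 72.7 for SUZ12.

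**Figure D4:**
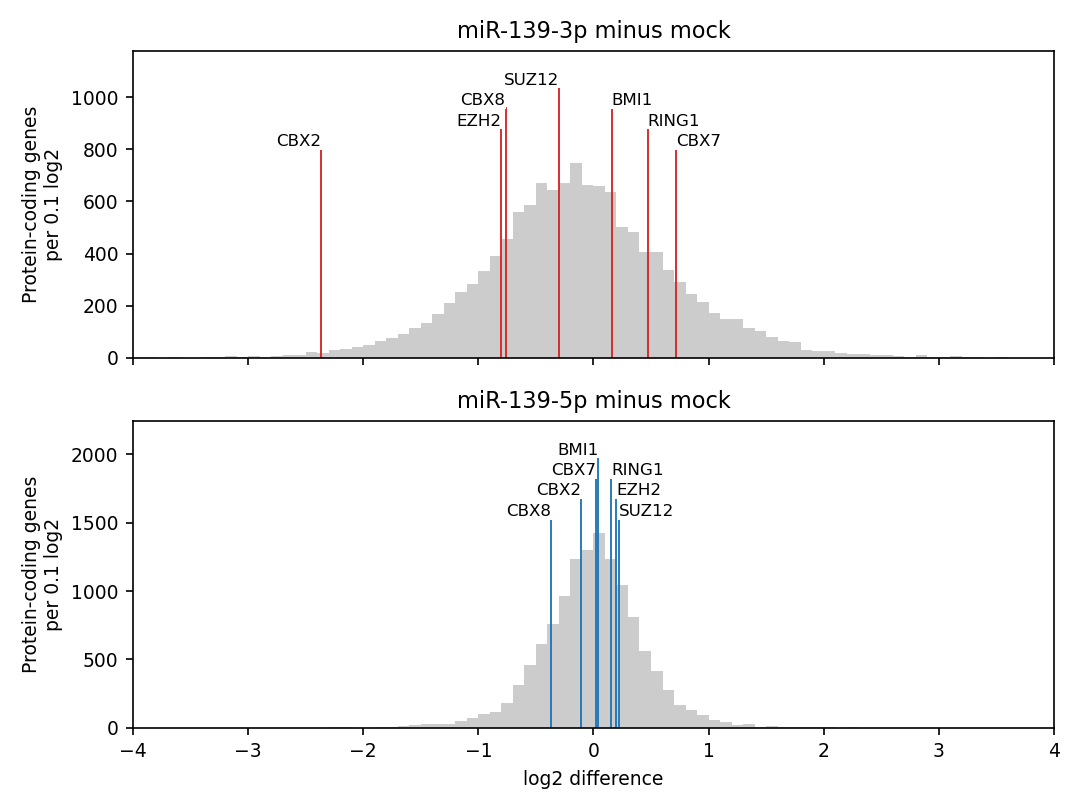
The number of protein-coding genes per 0.1 log2 unit of difference from mock, for miR-139-3p (top) and miR-139-5p (bottom), with a vertical line at each member gene. With miR-139-3p CBX2 lies in the lower tail at -2.37 and the other 6 members lie in the body of the distribution, while with miR-139-5p all 7 lie between -0.37 and 0.22.

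Further canonical PRC1 genes (RNF2, PCGF2, PHC1, PHC2, PHC3, SCMH1 and SCML2) were all measured. With miR-139-3p 3 of 7 were lower by over 0.5 and 1 was higher, with a median of -0.46; scaled to the 75th percentile of detected probes, 0 were lower and the median was -0.32, while without scaling 5 were lower and none was higher. Here and in the lists that follow, these counts stand beside 31.4% lower and 20.6% higher over all protein-coding genes with miR-139-3p, and beside 11.4% lower and 10.3% higher with miR-139-5p. The lower ones were the Polyhomeotic subunits PHC2 at -0.61 and PHC3 at -0.56, and SCMH1 at -0.59. SCML2 was higher, at 0.61. With miR-139-5p none was lower and 2 were higher, PHC2 at 0.60 and SCML2 at 0.60, with a median of 0.39. Under spike-in scaling that median was 0.52, past the limit, so the higher count was larger there. PHC2, whose protein polymerises and clusters PRC1, therefore lay on opposite sides of mock in the 2 comparisons. Its brighter probe read 1206 in mock, 1830 after miR-139-5p and 698 after miR-139-3p.

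The list of variant PRC1, in which other PCGF proteins and RYBP or YAF2 replace BMI1 and the CBX subunit, held 15 genes. With miR-139-3p 4 of 14 measured were lower and none was higher by over 0.5, with a median of -0.27, and under normexp background correction 0 were lower. These were PCGF5 at -0.70, BCOR at -0.69, the CpG-binding subunit KDM2B at -0.54 and L3MBTL2 at -0.50, just past the limit. The 2 PCGF5 probes disagreed, at -1.43 and 0.03. With miR-139-5p 1 of 15 passed the limit, PCGF3 at 0.94, from a dim probe that read 6.01 on mock and 10.9 on miR-139-5p. The PCGF3 spot on the miR-139-3p array was flagged as an outlier by the scanner software and left out.

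Among 11 further PRC2 genes, 10 were measured. With miR-139-3p 5 were lower and none higher by over 0.5, with a median of -0.29. PHF19, which brings PRC2 to chromatin, stood lowest, with probes that read 277 and 3223 on mock, 262 and 3412 on miR-139-5p, and 94.6 and 554 on miR-139-3p. Its log2 differences with miR-139-3p were -1.34 and -2.33, and with miR-139-5p 0.00 and 0.16. The histone-binding subunits RBBP7 and RBBP4, which other chromatin complexes use as well, differed by -1.10 and -0.81. Of the 4 RBBP4 probes 3 lay far below mock, down to -1.15, and 1 lay at 0.01. EPOP at -0.76 and PHF1 at -0.55 completed the 5. EZH1, the relative of EZH2 found in resting cells, differed by 0.05. With miR-139-5p the only gene past the limit was JARID2, a PRC2 cofactor, at -0.62, with signals of 227 in mock, 140 after miR-139-5p and 203 after miR-139-3p.

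Enzymes that remove Polycomb marks lay on both sides of mock. BAP1, which takes ubiquitin off histone H2A, read 212 in mock, 180 after miR-139-5p and 63.5 after miR-139-3p, a log2 difference of -1.53 with miR-139-3p. ASXL1, its cofactor, differed by -0.61. KDM6B, a demethylase of the PRC2 mark, read 20.3 in mock, 15.9 after miR-139-5p and 41.5 after miR-139-3p, a difference of 1.24. Its relative KDM6A was past the limit with miR-139-5p, at 0.81. Over the 5 measured of 6 genes this made 2 lower (1 under quantile normalisation, when scaled to detected probes and under normexp background correction) and 1 higher with miR-139-3p (0 under normexp), with a median of -0.13 that was 0.01 when scaled to detected probes, and none lower and 1 higher with miR-139-5p, with a median of -0.01 that was 0.11 under spike-in scaling.

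The HP1 proteins CBX1, CBX3 and CBX5 carry a chromodomain too but bind another histone mark. With miR-139-3p CBX5 at -0.78 and CBX3 at -0.65 were lower by over 0.5 and CBX1 at -0.27 was not, so 2 of 3 were lower and the median was -0.65. Probes of a gene fell on both sides of the limit, at -0.47 and -1.09 for CBX5 and at 0.03 and -0.57 for CBX1. A further CBX1 probe was left out as an outlier on the miR-139-3p array. With miR-139-5p only CBX1 passed the limit, at -1.09, and the median was 0.10. All 3 CBX1 probes gave this, between -1.13 and -1.04. CBX1 was thus lower with miR-139-5p while none of the Polycomb chromobox members passed the limit there.

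**Figure D5:**
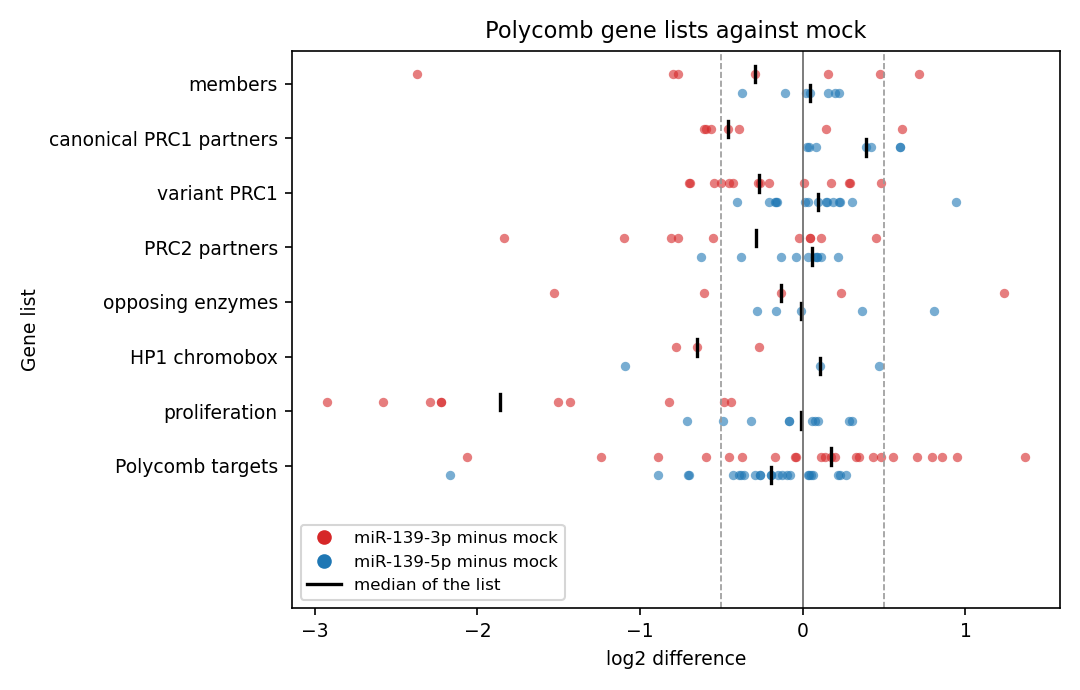
The log2 difference from mock of each measured gene in the members and in the 7 lists, with red for miR-139-3p, blue for miR-139-5p, a black bar at the median of each list and dashed lines at 0.5 to either side of 0. The proliferation genes lie furthest to the left with miR-139-3p, with a median of -1.86, and the medians with miR-139-5p lie between -0.19 and 0.39.

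HOX genes and the CDKN2A and CDKN2B cell-cycle inhibitors are textbook Polycomb targets. In the comparison of miR-139-3p 23 of 41 such genes were measured, of which 6 were higher and 4 lower by over 0.5, with a median of 0.17 that was -0.03 without scaling and -0.02 when scaled to the mean of the spike-in probes. With miR-139-5p 4 of 24 were lower and none higher, where 11.4% and 10.3% of all protein-coding genes were, with a median of -0.19. Among the HOX genes measured on both arrays, those highest with miR-139-3p were HOXA10 at 1.37, HOXB7 at 0.95 and HOXC8 at 0.85. The 2 HOXA10 probes differed: 1 read 380 on mock and 1744 on miR-139-3p, and the other read 31.8 and 34.4. The lowest of those measured on both arrays were HOXB8 at -2.07, HOXA2 at -1.24 and HOXC4 at -0.89. For 3 more genes, well above background on 1 of these arrays, only a bound was available. It was at least 0.91 for HOXD3, at least 0.52 for HOXD9, and -0.89 or lower for HOXC5. Their probes were dim: on mock and miR-139-3p HOXD3 read 2.86 and 7.86, HOXD9 4.59 and 5.99, and HOXC5 9.25 and 1.88. The other HOXD9 probe was not well above background on any array. As for the short CBX2 transcript, no direction is drawn from these bounds. HOXB8 read 131 in mock, 27.7 after miR-139-5p and 27.0 after miR-139-3p, so it was low on both precursor arrays. HOXA7 and HOXB9 lay on opposite sides of mock, at 0.80 and 0.70 after miR-139-3p but at -0.89 and -0.71 after miR-139-5p. CDKN2B and 1 of the 2 CDKN2A probes were not well above background on any array, and the other CDKN2A probe was flagged as an outlier on the miR-139-3p array.

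Proliferation genes were listed beside the members because EZH2 and its partners are more abundant in dividing cells. With miR-139-3p 8 of 10 were lower by over 0.5 and none was higher, with a median of -1.86. They were the replication helicase subunit MCM2 at -2.92, the E2F factors E2F2 at -2.58 and E2F1 at -2.22, topoisomerase TOP2A at -2.29, MKI67 at -2.23, the mitotic genes BUB1 at -1.50 and CCNB1 at -1.43, and CCNE2 at -0.82. TYMS at -0.48 and PCNA at -0.44 were within the limit. With miR-139-5p only MCM2 passed it, at -0.71, and the median was -0.01, or 0.11 under spike-in scaling. CBX2, EZH2 and PHF19 were thus low on the array where proliferation genes were low, and the part of those genes in the member values was not tested.

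Promoters were searched for 4 E2F-type motifs, TTTGGCGC, TTTCCCGC, TTTGCCGC and TTTCGCGC, on both strands in 300 bases around each gene start (RefSeq, GRCh38.p14). A match was present in 3.31% of 35116 promoters. Of the members with a promoter sequence (RING1, EZH2, BMI1, EED, SUZ12, CBX6 and CBX7), EZH2 and SUZ12 held a match each, EZH2 in 1 of its 2 listed promoters. CBX2 and CBX8 were not analysed here. The 2 stretches are shown with the motif in capitals, EZH2 at chr7:148884272-148884301 on the minus strand and SUZ12 at chr17:31936807-31936836 on the plus strand.
EZH2: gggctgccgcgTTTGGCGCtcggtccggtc
SUZ12: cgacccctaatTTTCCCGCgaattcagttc
The EZH2 match begins 1 base after the gene start and the SUZ12 match 189 bases before it. With miR-139-3p EZH2 differed by -0.80 and SUZ12 by -0.30, where probes of like signal to SUZ12 had a median of -0.38. RING1, BMI1 and CBX7, with no match in their windows, differed by 0.47, 0.16 and 0.72. Whether a match goes with a difference was not tested, and CBX2 and CBX8 are missing from these values. A match describes letters only.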

How the data were processed

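Total RNA from 3 A549 samples was labelled with Cy3 and read on 1 Agilent array each. The authors deposited spot intensity tables from Agilent Feature Extraction (version 12.1.1.1 per the file headers), with background subtracted and no normalization between arrays. They also deposited log2 values per probe, which match quantile-normalised signals (r of at least 0.999967) and served as an alternative.

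Scanner signals were divided by the 75th percentile over spots other than controls, and log2 was taken. Spots flagged as outliers (614 in mock, 935 after miR-139-5p, 1526 after miR-139-3p) were left out, and spots of a probe averaged. A gene value is the mean log2 difference over probes well above background (at least 50% of spots) on both arrays. Probes were named through RefSeq accessions, of which 24751 of 25277 with an NM accession matched. The genes named are all members, listed Polycomb and HP1 genes past 0.5, all proliferation genes, CDKN2A, CDKN2B, the 3 HOX genes furthest from mock in each direction, and the 5 genes nearest to CBX2. Outside that rule EZH1, CBX1 in the first comparison, HOXA7, HOXB9, HOXC5, HOXD3, HOXD9 and ENPP7 were named after their values were seen. The members and all lists were chosen with earlier results of these data known. One listed gene is not reported here. The scripts were tested on simulated data. Analyses used Python 3.11.15, R 4.3.3 and limma 3.58.1. There were 14 alternatives, of which 1, the spike-in mean as scale, was added after the values were known, and no test or p-value was made because each condition had 1 array.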

Additional observations from a re-analysis of the deposited data

How the results depend on the processing

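No paired analysis was possible because each condition had 1 array and no test was made, and no replicate could be left out. With miR-139-3p, 3 members were lower and 1 higher than mock by over 0.5. At a limit of 1 the counts were 1 lower (CBX2) and 0 higher. The higher count was 2, with RING1 past the limit, under quantile normalisation, under the 75th percentile of probes detected on all arrays, under scaling to the median signal of the E1A spike-in probes, under normexp background correction of median spot intensities with an offset of 50 and quantile normalisation (2) and in the deposited log2 values (2). The spike-in result depends on the summary: that median followed the lowest of the 7 probe differences (-0.07 to 0.35). With their mean instead, an alternative chosen after seeing the data, RING1 was at 0.28, the counts were 3 lower and 1 higher, and BMI1 was at -0.03. With miR-139-5p both counts were 0 under every alternative run. Over the 13 alternatives that keep the limit CBX2 with miR-139-3p ran from -2.58 to -0.17; the upper value, without a filter on dim probes, averages in the short-transcript probe. EZH2 ran from -1.01 to -0.55, CBX7 from 0.51 to 0.86, CBX8 from -0.97 to -0.42 (normexp, within the limit), RING1 from 0.26 to 0.63 and SUZ12 from -0.50 (no scaling, past the limit) to -0.09 (quantile). BMI1 was at -0.05 without scaling. CBX2 with miR-139-5p was at 0.01 under both spike-in scalings. The median of the PRC2 partners with miR-139-5p was 0.06, and -0.02 without scaling. The median of all protein-coding genes with miR-139-3p was -0.15, but -0.36 without scaling, -0.35 with the spike-in mean, -0.02 with the percentile over detected probes and 0.05 with no filter on dim probes. With miR-139-5p it was 0.00, and 0.13 or 0.12 with the spike-in median or mean. The share of higher calls among all calls with miR-139-3p was 39.5%, against 50.1% with the percentile over detected probes, 25.6% without scaling and 26.5% with the spike-in mean. With miR-139-5p it was 47.4%, against 69.3% and 68.3% with the spike-in median and mean and 34.2% without scaling. Precision is limited by 1 array per condition, and for the short CBX2 transcript by a signal near background.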

Other observations

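The genes whose pair of differences lay nearest to that of CBX2 (-0.11 after miR-139-5p, -2.37 after miR-139-3p) were MGLL, TUBB, GPRC5A, SUMF2 and TOP2A, at distances of 0.03 to 0.08 log2 units in the plane of both differences. Of 12322 other protein-coding genes with a value in both comparisons against mock, 39 lay within 0.25 of CBX2. MGLL, a lipase of monoglycerides, differed by -0.10 and -2.40, the tubulin gene TUBB by -0.08 and -2.35, and TOP2A by -0.09 and -2.29. The likeness rests on 3 arrays and is a description.

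PDGFB, the protein-coding gene that follows CBX7 on chromosome 22, was lower than mock with both precursors, at -1.43 after miR-139-3p and -0.89 after miR-139-5p, on a dim probe that read 26.6 in mock, 13.7 after miR-139-5p and 8.54 after miR-139-3p. CBX7 itself was at 0.72 and 0.02. PDGFB was named after its value was seen.

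A dim CBX3 probe read 1.90 on mock and 5.12 on miR-139-5p, not well above background, and 37.8 on miR-139-3p, where it was, while the bright CBX3 probe read 6251, 6380 and 3447. After scaling, the dim CBX3 probe differed from mock by 4.53 log2 units with miR-139-3p. The 1519 probes set beside the short-transcript CBX2 probe were brighter in mock, so their share of 58.1% does not describe it. Probes as dim as this one were not examined. As its mock signal was not well above background, no direction is drawn from the dim CBX3 probe.

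The 7 E1A spike-in probes, which report labelling and hybridisation rather than cells, differed from mock by 0.19 ± 0.13 (SD, n = 7 probes) after miR-139-3p, with a range from -0.07 to 0.35, and by -0.12 ± 0.03 (SD, n = 7 probes) with miR-139-5p after scaling.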
